A study of Mus musculus with 20 samples.

Results

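The report covers 9 genes that encode transcription factors, a growth factor and its receptor of the myeloid and B lineages and that have been described as targets of the repressor GFI1: Sfpi1 (which encodes PU.1; the current symbol is Spi1), Spib, Irf4, Irf8, Csf1, Csf1r, Cebpa, Cebpb and Cebpe. They were taken by name, from all probe sets whose platform symbol was exactly one of these 9, which gave 69 of the 167016 probe sets that name 1 gene and 9 of the 19607 genes so named. Sfpi1 had 4 probe sets, Spib 5, Irf4 10, Irf8 11, Csf1 11, Csf1r 22, Cebpa 2, Cebpb 1 and Cebpe 3. The study asked how loss of Gfi1 changes gene expression in irradiated thymocytes and in tumours derived from thymocytes, with 20 arrays of C57BL/6 mouse samples in 8 groups. Untreated thymocytes had 2 wild-type (WT) and 2 Gfi1 knockout (KO) arrays and irradiated thymocytes 3 and 3. For these the sources used here give no dose, no time since irradiation, no age and no description of the KO allele. ENU tumours (3 and 3 arrays) arose after injection of the alkylating mutagen ENU, and Notch tumours (2 and 2) after ENU in mice that also carried a Notch transgene, which the labels call Notch1-CT. Mice of all 4 tumour groups carried floxed Gfi1 (Gfi1f/f) and, per the treatment protocol, were given pIpC once a growing mediastinal tumour had been seen by ultrasound, with the tumour cells taken some weeks later; the KO tumour groups alone carried Mx1Cre, which pIpC induces and which then deletes Gfi1. Mx1Cre acts in many interferon-responsive cells, not in thymocytes alone, and pIpC itself induces interferon. No label says whether arrays of 1 group stem from different mice, so the spread behind each p-value may be technical.

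GFI1 is a zinc finger protein that binds DNA at sites with an AATC core and brings histone-modifying cofactors to its targets, and it is needed for granulocyte formation and for normal thymocyte development. PU.1 is an ETS factor that drives the macrophage and B fates and is shut off when progenitors commit to the T lineage; SPIB is its close relative, active in B cells and plasmacytoid dendritic cells. IRF4 and IRF8 bind DNA together with PU.1 or SPIB, IRF4 mainly in plasma cells, activated lymphocytes and dendritic cells and IRF8 in monocytes, dendritic cells and B cells. CSF1 is the growth factor of macrophages and CSF1R its receptor. C/EBP alpha, beta and epsilon are bZIP factors that act in early myeloid cells, in stressed or inflammatory myeloid cells and in late granulocyte precursors.

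The upstream sequences of Spib, Irf4 and Irf8 are shown because Spib and Irf4 gave the clearest differences between genotypes and Irf8 carries the longer GFI1 motif searched. Each is the 250 bases before the gene's first listed transcription start in RefSeq (GRCm38.p6), written 5′ to 3′ on the gene's strand, with each AATC on either strand in capitals, so that a match on the opposite strand reads GATT. Of the 9 genes, 6 had a window in this search. The Spib window lies at chr7:44532072-44532321 (minus strand), the Irf4 window at chr13:30748983-30749232 (plus strand) and the Irf8 window at chr8:120736108-120736357 (plus strand).

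Spib: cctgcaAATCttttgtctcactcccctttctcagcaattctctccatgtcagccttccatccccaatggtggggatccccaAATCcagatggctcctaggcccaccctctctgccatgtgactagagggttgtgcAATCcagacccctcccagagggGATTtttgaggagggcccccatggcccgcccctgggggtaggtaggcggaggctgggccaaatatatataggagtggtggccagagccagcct

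Irf4: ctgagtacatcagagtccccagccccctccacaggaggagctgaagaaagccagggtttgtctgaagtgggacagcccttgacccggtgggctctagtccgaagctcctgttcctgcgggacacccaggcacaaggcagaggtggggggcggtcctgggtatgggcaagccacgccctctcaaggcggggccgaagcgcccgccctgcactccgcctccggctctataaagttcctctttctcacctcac

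Irf8: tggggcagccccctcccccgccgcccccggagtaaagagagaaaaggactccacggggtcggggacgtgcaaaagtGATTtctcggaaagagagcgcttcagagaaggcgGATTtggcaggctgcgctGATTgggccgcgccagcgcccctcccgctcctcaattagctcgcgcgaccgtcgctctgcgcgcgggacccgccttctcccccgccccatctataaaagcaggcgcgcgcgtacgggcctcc

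The Spib window holds 4 AATC, with their first base 244, 169, 115 and 93 bases before the start, and the Irf8 window holds 3, at 174, 140 and 122 bases. The match at 174 bases in Irf8 is also the 1 occurrence of AAATCAC in the 3 windows (read on the opposite strand), a motif that contains AATC. The Irf4 window holds no AATC. By the same search Csf1 had 4 matches and Cebpa and Cebpb none. Of 32851 promoter windows of this length, 69% hold AATC on at least 1 strand and 2.75% hold AAATCAC. These matches describe letters in the windows and were not set against binding data.

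Values are read as log2 signal, so a difference of 1 is a doubling if the log base is 2, which the value range of the table (3.37 to 15.01) bears but no source states. To be tested, a gene had to exceed an array's 40th percentile on 2 or more arrays of the fit; over the 20 arrays that percentile ran from 7.85 to 8.05. A value lower than this is called dim. Called means a limma adjusted p under 0.05 over all genes tested. The Gfi1 probe sets checked the labels. In untreated KO thymocytes Gfi1 probe set 2 had a mean of 5.64 against 12.0 in WT, while probe sets 5 and 7 were higher (11.4 and 11.1 against 10.4 and 9.89) and probe set 6 differed by less than the spread (10.16 ± 0.03 against 10.17 ± 0.06, SD, n = 2); in KO Notch tumours probe set 2 read 6.70 against 11.2. In irradiated KO thymocytes Gfi1 probe set 2 was higher (12.7 against 11.5) and probe sets 5, 6 and 7 were lower, at 7.89, 7.31 and 7.18 against 9.78, 9.74 and 9.44. Gfi1 probe set 4 was lower in both KO groups, at 8.95 against 11.2 in untreated and 9.43 against 10.8 in irradiated cells. Apart from it, untreated and irradiated KO thymocytes lacked signal at different Gfi1 probe sets. Whether both carried 1 allele is not stated, and wherever irradiated KO is set against untreated KO, irradiation and any difference in allele cannot be told apart. In the tumours labelled KO ENU Gfi1 probe set 2 stood at 10.9 against 11.1 in WT, so these arrays do not show the labelled loss. Thymocyte arrays had T-cell markers (14 genes) at a mean of 12.20 to 12.74. The library labelled KO Notch 2 stood apart: its T-cell markers had a mean of 9.39 and 3 of 14 were dim, while its B-cell markers had a mean of 12.59, with Cd79a at 13.8 and Pax5 at 12.1, against 7.40 to 9.20 on the other 19 arrays. It goes against its label as thymocyte tumour, and the Notch tumour differences are given with and without it.

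**Figure D1:**
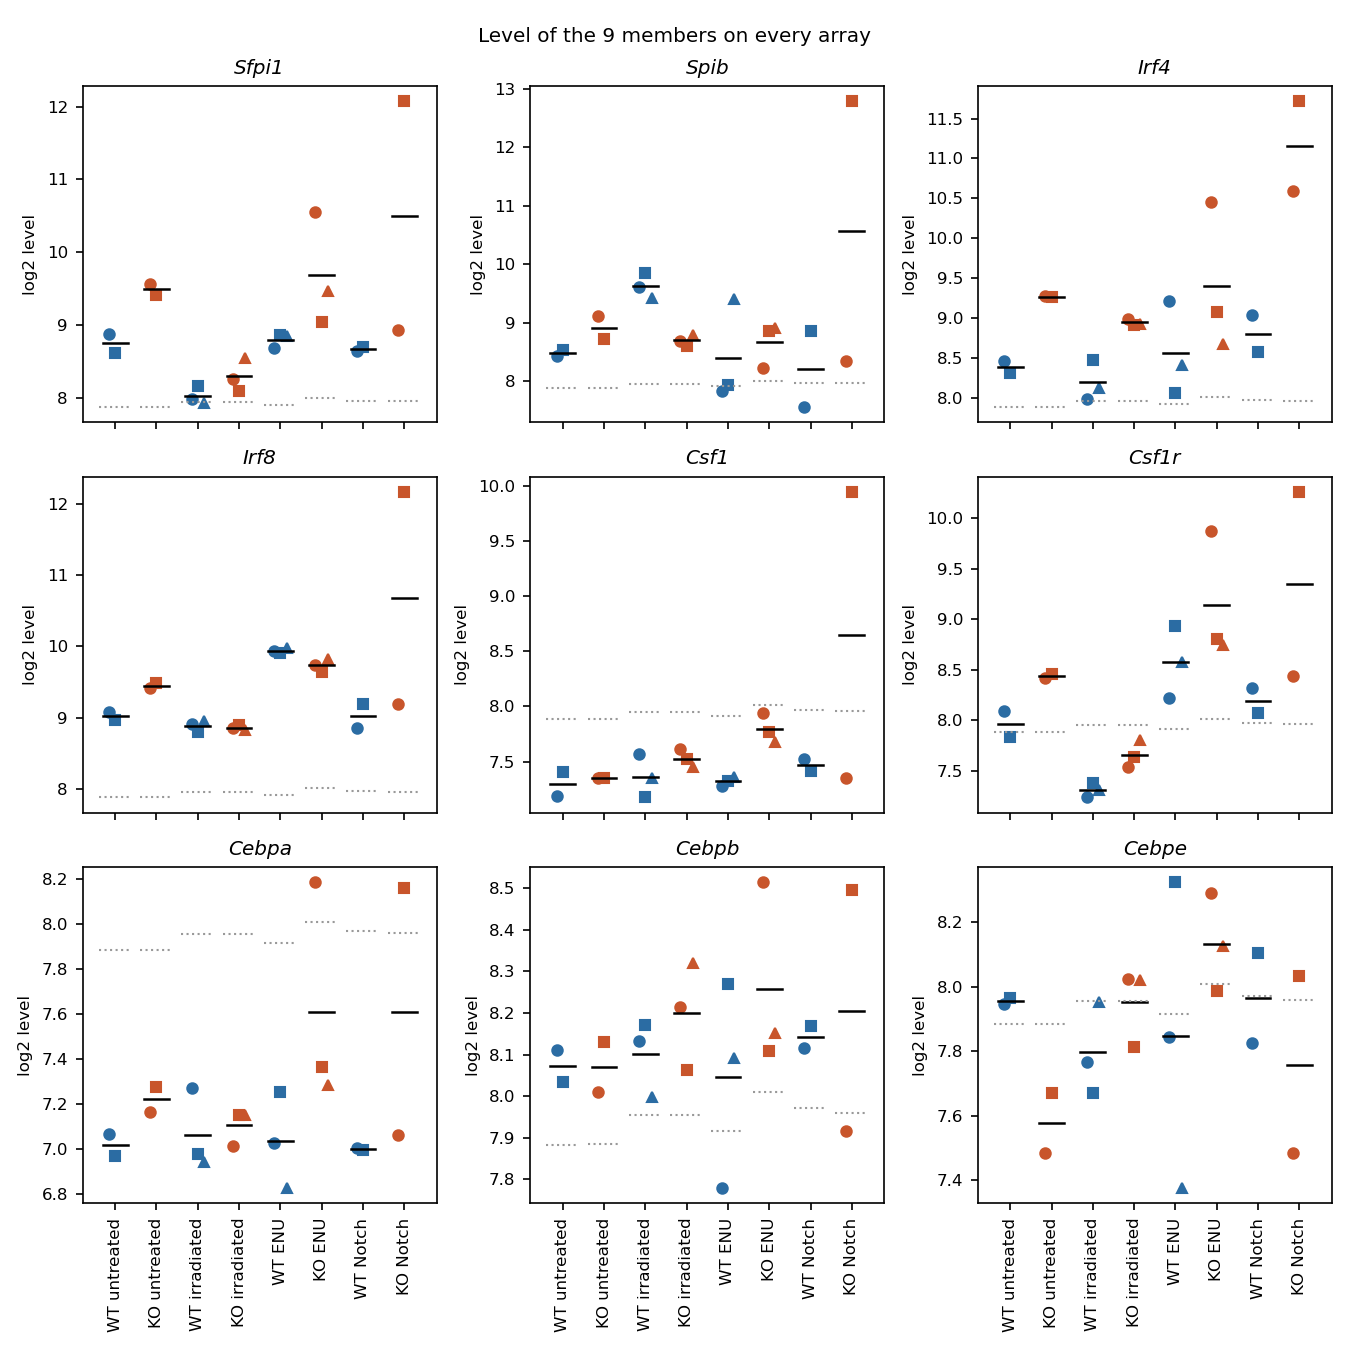
Log2 level of each of the 9 genes on every array by group; WT arrays are blue, KO arrays orange, the marker shape tells the arrays of a group apart, bars are group means and dotted lines the mean 40th percentile of the group's arrays. Spib was highest among thymocytes in irradiated WT (9.43 to 9.85), Irf4 was higher in KO than in WT thymocytes in both conditions, and the library labelled KO Notch 2 had the highest level of Sfpi1, Spib, Irf4, Irf8, Csf1 and Csf1r.

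Loss of Gfi1 in untreated thymocytes went with higher Irf4, Sfpi1, Csf1r and Irf8, by 1.34-fold to 1.85-fold. Of the 9 genes 7 were bright enough to test and 4 were called, all higher, where 12.3% of the 12747 genes tested were called and 6.79% were higher. The median difference of the 7 was 0.44, against -0.02 over all genes tested. Both KO arrays lay above both WT arrays for 5 of the 7, as for 28.6% of all genes, and below both for Cebpe, as for 33.3%. Csf1r passed the limit for testing through untreated arrays alone, and Cebpe through WT untreated and KO irradiated arrays alone. The counts and the median include both genes and are a description only. The gene values of Csf1 and Cebpa were dim on all 10 thymocyte arrays and went untested. In such bulk RNA, more cells of a type and more RNA per cell cannot be told apart.

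In irradiated thymocytes the KO differences of these genes were not all of 1 sign. Irf4 and Csf1r were higher in KO and Spib was lower, so 3 of 7 were called where 14.9% of all genes were called, 8.12% higher and 6.81% lower. The median difference was 0.16, against -0.03 over all genes. The KO and WT arrays did not overlap for these same 3 genes, where 11.8% of all genes did not overlap on the higher side and 13.4% on the lower. These counts and the median include Csf1r and Cebpe, tested through some groups alone, and are a description only. Sfpi1, Irf8, Cebpb and Cebpe were not called in irradiated cells, and Spib, Cebpb and Cebpe were not called in untreated cells. Whether GFI1 represses the 9 genes, the name under which they were grouped, was not tested.

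Between irradiated and untreated cells the genes moved in different directions, and in KO any difference in allele cannot be told apart from irradiation. In WT thymocytes Sfpi1 and Csf1r fell and Spib rose, 3 of 7 called, where 34.6% of all genes were called, 13% higher and 21.7% lower. In KO thymocytes Sfpi1, Csf1r, Irf8 and Irf4 fell and Cebpe rose, 5 of 7 called, where 38.8% of all genes were called, 15.1% higher and 23.7% lower. With backgrounds this high, the counts say little about the 7 genes as a list. The median differences were -0.16 in WT and -0.32 in KO, against -0.02 over all genes in both. The counts and medians include Csf1r and Cebpe, tested through some groups alone, and are a description only. The response to irradiation differed between genotypes for 1 gene, Spib, lower in KO, where 1.88% of all genes differed, 1.1% higher and 0.784% lower. The KO and irradiation comparisons share arrays pairwise, so their values are given side by side and were not tested for agreement.

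These calls rest on the spread within the 10 thymocyte arrays. With all 20 arrays in 1 fit, whose spread included the tumours, none of the 9 genes was called in any of the 5 thymocyte comparisons, and with the library labelled KO Notch 2 left out of that fit (chosen after seeing the data) the thymocyte calls were Sfpi1 and Irf8 in irradiated against untreated KO.

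**Figure D2:**
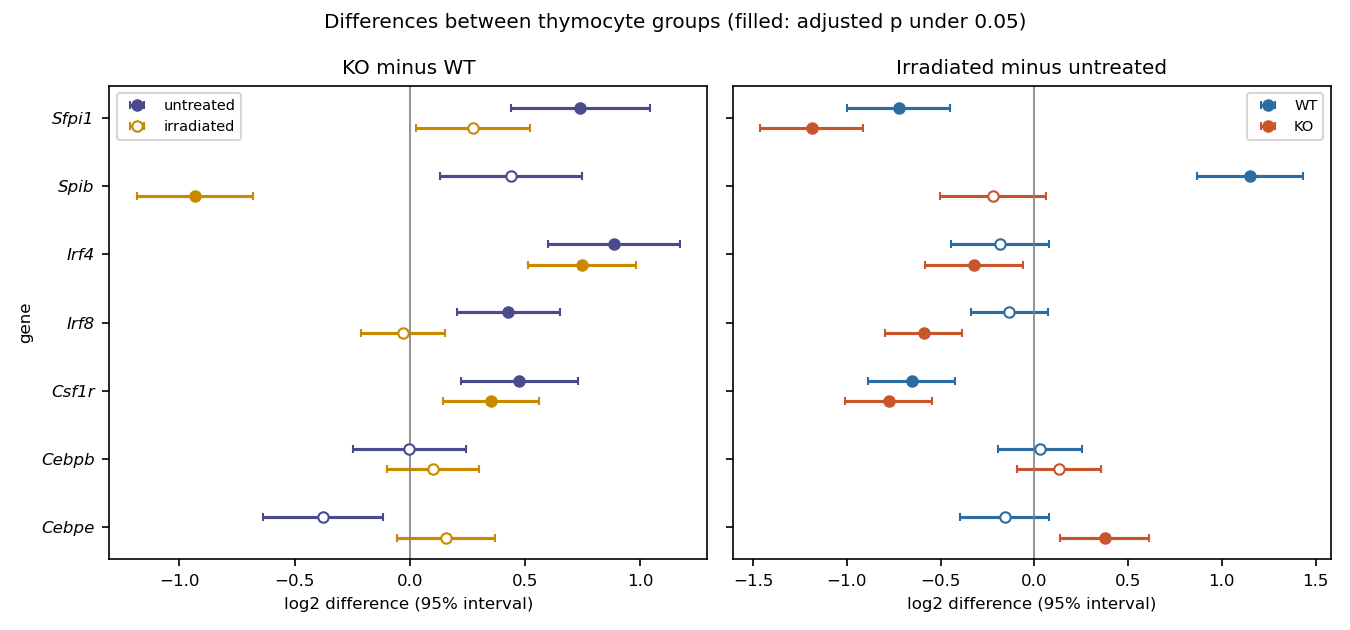
Log2 differences with 95% intervals for the 7 genes tested in thymocytes, KO minus WT on the left and irradiated minus untreated on the right; filled points have a limma adjusted p under 0.05. The KO difference of Spib was 0.44 in untreated and -0.93 in irradiated cells. Irf8, Cebpb and Cebpe also differ in sign between the 2 conditions, and none of them was called in irradiated cells. Spib rose with irradiation in WT (1.15) without a rise in KO (-0.22).

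Sfpi1, the gene of PU.1, had values of 8.88 and 8.63 on the WT untreated arrays and 9.57 and 9.42 on the KO untreated arrays. Both KO arrays stood above both WT arrays. The difference was 0.74 ± 0.14 (SE; limma adjusted p = 0.00182), or 1.67-fold, and it held without each of the 4 arrays in turn. After irradiation the WT arrays read 7.99, 8.17 and 7.94 and the KO arrays 8.27, 8.10 and 8.55. The groups overlapped, and the difference of 0.27 ± 0.12 was not called (limma adjusted p = 0.142; 95% interval 0.03 to 0.52), although it was without KO irradiated array 2 (0.38, limma adjusted p = 0.0349). Sfpi1 was lower in irradiated than in untreated cells of both genotypes. The log2 difference was -0.72 ± 0.13 in WT (limma adjusted p = 0.000467) and -1.19 ± 0.13 in KO (limma adjusted p = 3.26e-06). The difference between these responses was not called (-0.46 ± 0.18, limma adjusted p = 0.27). The 3 probe sets of Sfpi1 bright enough to test had the same sign in each of these comparisons; 1 was called in untreated KO against WT, where 4.66% of all probe sets were called, 2.93% higher and 1.73% lower.

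Spib gave the largest genotype difference in the irradiation response. WT untreated arrays read 8.43 and 8.53, and WT irradiated arrays 9.60, 9.85 and 9.43, so every irradiated WT array lay above every other thymocyte array. KO untreated arrays read 9.11 and 8.72 and KO irradiated arrays 8.69, 8.60 and 8.79, which overlap. Spib rose by 1.15 ± 0.13 with irradiation in WT (limma adjusted p = 6.97e-06), or 2.22-fold, while in KO the difference was -0.22 ± 0.13 (limma adjusted p = 0.203). The difference between the responses was -1.37 ± 0.19 (limma adjusted p = 0.000737) and was called without each of the 10 thymocyte arrays in turn, at -1.57 to -1.17; with all 20 arrays in 1 fit it was not called (limma adjusted p = 0.9999). It compares KO groups that lacked signal at partly different Gfi1 probe sets. The KO difference was -0.93 ± 0.12 in irradiated cells (limma adjusted p = 2.32e-05) and 0.44 ± 0.15 in untreated cells, where it was not called (limma adjusted p = 0.0626) but was without KO untreated array 2 (0.64, limma adjusted p = 0.029) and with the mean of the probe sets (0.42, limma adjusted p = 0.0376).

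The pattern was shared by the Spib probe sets. All 4 bright enough to test rose with irradiation in WT, by 0.93 to 1.44, where 20.4% of all probe sets were called, 8.55% higher and 11.8% lower. The same 4 were lower in irradiated KO than in irradiated WT, by -1.20 to -0.96, where 7.34% of all probe sets were called, 4.55% higher and 2.79% lower. For 2 of them, probe sets 1 and 5, the difference in response was itself called (-1.54 and -1.52), where 0.106% of all probe sets were, 0.0644% higher and 0.0421% lower. Spib probe sets 1 and 3 were also lower in irradiated than in untreated KO cells (-0.61 and -0.58), a fall that the gene value did not show. Probe set 2 was too dim to test.

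**Figure D3:**
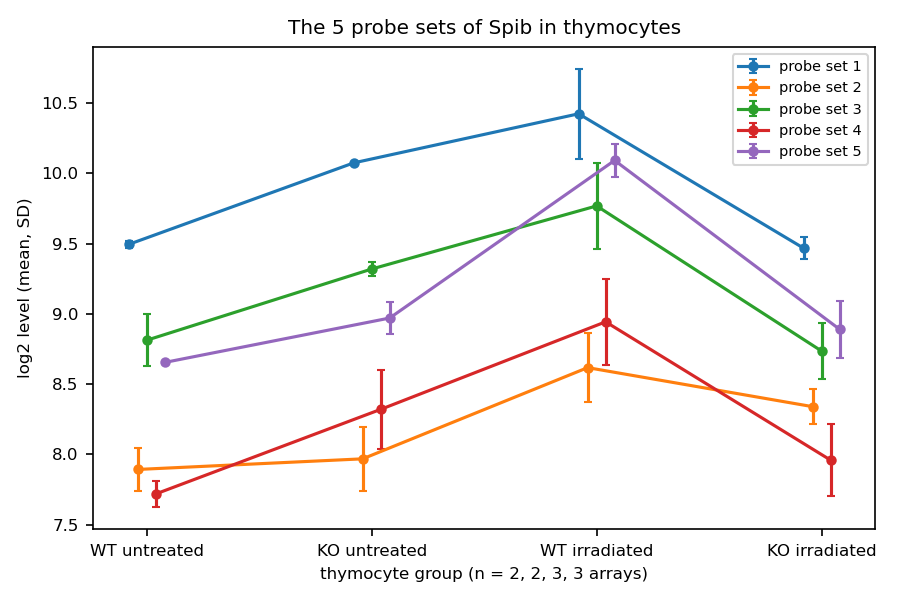
Mean log2 level (bars: SD) of the 5 Spib probe sets in the 4 thymocyte groups. All 5 were highest in irradiated WT thymocytes.

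Irf4 was higher in KO thymocytes in both conditions and had the smallest adjusted p of the 7 tested genes in untreated cells. WT untreated arrays read 8.45 and 8.31 and KO untreated arrays 9.27 and 9.26. WT irradiated arrays read 7.99, 8.47 and 8.12 and KO irradiated arrays 8.99, 8.91 and 8.92. In both conditions every KO array lay above every WT array. The KO difference was 0.89 ± 0.14 in untreated cells (limma adjusted p = 0.000226), or 1.85-fold, and 0.75 ± 0.11 in irradiated cells (limma adjusted p = 0.000105), or 1.68-fold. It was called without each array in turn in both conditions. Irf4 differed little between irradiated and untreated cells. The difference was -0.19 ± 0.12 in WT (limma adjusted p = 0.254). In KO it was -0.32 ± 0.12, which was called (limma adjusted p = 0.0482) but lost when any 1 of its 5 arrays was left out (0.0601 to 0.191). The interval of the difference between the responses ran from -0.51 to 0.23.

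**Figure D4:**
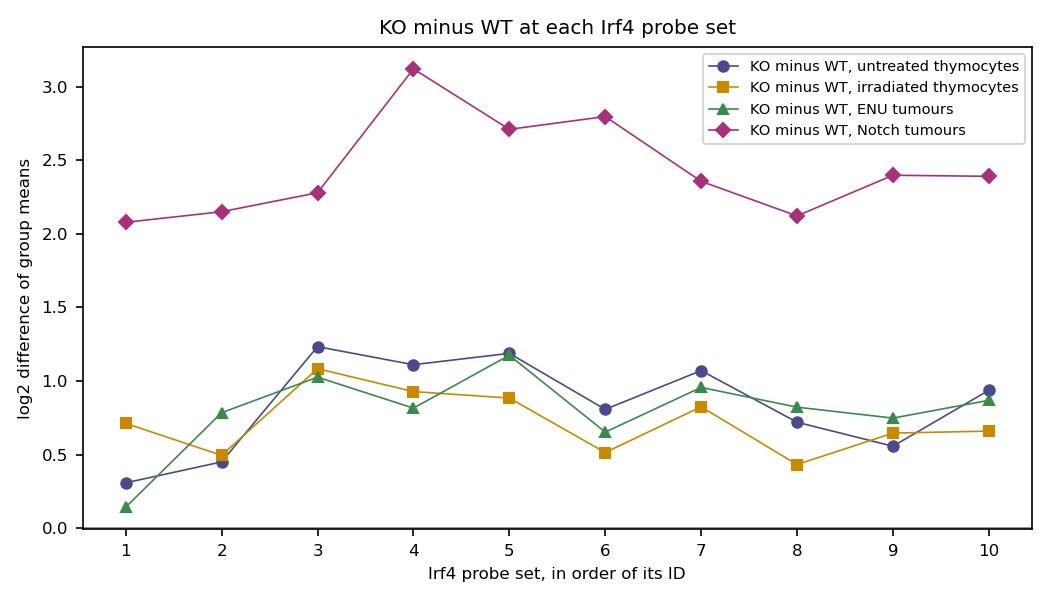
KO minus WT difference of group means at each of the 10 Irf4 probe sets, ordered by probe set ID and not by position, in the 4 settings. All 10 lie above 0 in all 4 settings, and 6 of them were bright enough to test in thymocytes. The Notch tumour values include the library labelled KO Notch 2, without which the Irf4 gene value differed by 1.79. The arrays labelled KO ENU do not show the labelled loss of Gfi1, and without KO ENU array 1 the Irf4 gene value differed by 0.32 in ENU tumours.

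Of the 6 Irf4 probe sets bright enough to test in thymocytes, 4 were higher in untreated KO (0.94 to 1.23 for those called) and 5 in irradiated KO (0.65 to 1.08 for those called), where 2.93% and 4.55% of all probe sets were higher. All 6 were positive in both.

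Irf8 differed between genotypes in untreated cells and less clearly than Irf4. WT untreated arrays read 9.08 and 8.97, KO untreated 9.42 and 9.49, WT irradiated 8.91, 8.80 and 8.96 and KO irradiated 8.86, 8.89 and 8.83. The untreated KO arrays stood above all 8 others, and the irradiated genotypes overlapped. The KO difference in untreated cells was 0.43 ± 0.11 (limma adjusted p = 0.012), and it was lost without WT untreated array 2 (limma adjusted p = 0.145), KO untreated array 1 (0.0766) or KO untreated array 2 (0.145). In irradiated cells it was -0.03 ± 0.09 (95% interval -0.21 to 0.15). Irf8 fell with irradiation in KO, by a log2 difference of -0.59 ± 0.10 (limma adjusted p = 0.000169), and in WT the difference was -0.13 ± 0.10 (limma adjusted p = 0.294). The difference between these responses was not called (-0.46 ± 0.14, limma adjusted p = 0.115). No Irf8 probe set was called between genotypes; 5 of 9 tested fell with irradiation in KO, where 25.7% of all probe sets were called, 10.8% higher and 14.9% lower.

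Csf1r, the receptor of CSF1, was near the dim limit in thymocytes. WT untreated arrays read 8.09 and 7.84, KO untreated 8.42 and 8.46, WT irradiated 7.24, 7.38 and 7.31 and KO irradiated 7.54, 7.64 and 7.80. The KO arrays lay above the WT arrays in each condition, and all 6 irradiated arrays were below all 4 untreated ones and dim. The KO difference was 0.47 ± 0.12 in untreated cells (limma adjusted p = 0.0137) and 0.35 ± 0.10 in irradiated cells (limma adjusted p = 0.0216). The Csf1r call in untreated cells was lost without WT array 2, KO array 1 or KO array 2 (limma adjusted p from 0.0905 to 0.213), and that in irradiated cells without WT array 1, WT array 3 or KO array 3 (0.0548 to 0.121). Csf1r was lower in irradiated than in untreated cells, by a log2 difference of -0.65 ± 0.11 in WT (limma adjusted p = 0.00026) and -0.78 ± 0.11 in KO (limma adjusted p = 4.13e-05). Csf1r was bright enough to test through 1 of 2 WT and 2 of 2 KO untreated arrays and 0 of 6 irradiated ones, so the filter admitted it by the groups where it was high, and these falls and its place in the counts of calls are no independent support. Of its 22 probe sets 10 were bright enough to test; probe set 3 was called in both KO comparisons, at 1.04 and 1.14, and probe sets 15 and 20 in irradiated cells, at 0.71 and 1.16. Csf1r probe set 21 rose with irradiation in KO (0.46) while 7 others fell. The gene value of its ligand Csf1 read 7.17 to 7.61 on the thymocyte arrays, dim on all 10. Of its 11 probe sets 2 were bright enough to test and neither was called; the smallest p was that of Csf1 probe set 10 in irradiated KO against WT (0.44 ± 0.14, limma adjusted p = 0.0905).

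Among the C/EBP genes 1 call was made in thymocytes, for Cebpe. Cebpb, with a single probe set, read 8.11 and 8.03 in WT untreated, 8.01 and 8.13 in KO untreated, 8.13, 8.17 and 8.0 in WT irradiated and 8.21, 8.06 and 8.32 in KO irradiated arrays. The groups overlapped, and its KO difference had a 95% interval of -0.25 to 0.24 in untreated and -0.10 to 0.30 in irradiated cells. Cebpa read 6.94 to 7.28 and was dim on all 10. Cebpe read 7.94 and 7.97 in WT untreated, 7.48 and 7.67 in KO untreated, 7.77, 7.67 and 7.95 in WT irradiated and 8.02, 7.81 and 8.02 in KO irradiated arrays, around the dim limit, and it was bright enough to test through both WT untreated and 2 KO irradiated arrays, so its differences are tied to how it was admitted. Untreated KO arrays were below the others except WT irradiated array 2, which equalled the higher of them to 2 decimals. The KO difference in untreated cells was -0.38 ± 0.12 and not called (limma adjusted p = 0.0547), although it was under 3 of the alternatives (0.0312 to 0.046). Cebpe rose with irradiation in KO by 0.38 ± 0.11 (limma adjusted p = 0.0144), a call lost without KO untreated array 1 (limma adjusted p = 0.196), and the difference between the responses was not called (0.53 ± 0.16, limma adjusted p = 0.112). Of its 3 probe sets only probe set 2 was bright enough to test, and its rise in KO was not called (limma adjusted p = 0.0774). In irradiated KO against WT that probe set differed by -0.08, where the gene value differed by 0.16.

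Relatives and known targets of the 9 genes, from lists chosen with earlier results of these data known, moved as follows in KO against WT; over all genes 6.79% rose and 5.49% fell in untreated cells. Of 9 other ETS factors tested, 2 rose and 1 fell in untreated cells: Etv6, an ETS repressor, rose by 0.58 and Fli1 by 0.37, and Ets2 fell by -0.45. In irradiated cells Etv6 rose by 0.58 and Ets2 fell by -0.61. Of 6 other interferon regulatory factors, Irf2 rose in untreated cells (0.44; list median 0.37), and 4 rose in irradiated cells: Irf1 (0.71), Irf7 (0.70), Irf9 (0.55) and Irf5 (0.39), for a list median of 0.47. Of 8 other colony-stimulating factors and receptors, 5 rose and 2 fell in untreated cells. Il34, the other ligand of CSF1R, rose by 1.19 ± 0.11 (limma adjusted p = 5.28e-07), and Csf2rb, the shared signalling chain of the GM-CSF and IL-3 receptors, by 0.80; the granulocyte receptor gene Csf3r fell by -0.83 and the FLT3 ligand gene Flt3l by -0.95. In irradiated cells Il34 rose by 0.81, Csf2rb by 0.47 and the progenitor receptor gene Flt3 by 0.31. The 1 other C/EBP gene tested, Ddit3, was not called.

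In irradiated KO cells 8.12% of all genes rose and 6.81% fell. Of 21 myeloid targets of PU.1, C/EBP and IRF8 tested, 4 rose and 6 fell in untreated KO cells (median 0.14). The 4 with the smallest p were the neutrophil granule genes Ngp (-4.47), Lcn2 (-4.24), Ltf (-2.57) and Camp (-1.57), and all 4 fell. In irradiated KO cells 11 rose and 5 fell (median 0.30), with Lyz2 at 2.06, Lyz1 at 1.79 and Ctss, a cathepsin of antigen-presenting cells, at 1.46, while Ngp fell again. Of 21 B and plasmacytoid dendritic cell targets, 8 rose and 1 fell in untreated cells (median 0.28), among them Fcer2a (1.03), the low-affinity IgE receptor of B cells, Cd79a (0.68) and Pou2af1 (0.57), and the 1 that fell, named after its value was seen, was Bcl6 (-0.53). In irradiated cells 9 rose and 3 fell (median 0.14), with Cd79a at 1.12, Cd74 at 0.88 and Ms4a1 at 0.74. Of 14 T-lineage factors, Runx3 rose (0.92) and Zbtb7b fell (-0.51) in untreated KO cells, and 4 fell in irradiated KO cells, among them Bcl11b (-0.46) and Tox (-0.44). Of 7 genes of GFI1's own family and cofactors, the paralogue Gfi1b rose by 0.42 in untreated KO cells, and Gfi1 (-1.31) and Hdac1 (-0.30) fell in irradiated KO cells; the Gfi1 gene value, a median over its 8 probe sets, was not called in untreated KO cells (0.26).

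With irradiation 21.7% of all genes fell and 13% rose in WT, and 23.7% fell and 15.1% rose in KO. Of 21 myeloid targets 18 fell and 2 rose in WT (median -0.82) and 11 fell and 2 rose in KO (median -0.38); of 21 B and plasmacytoid dendritic cell targets 13 fell in WT and 15 in KO, with Tlr7 at -1.61 and -1.75. Spib rose in irradiated WT cells, and of these 21 B and plasmacytoid dendritic cell targets 0 rose there. Of the 6 other interferon regulatory factors 4 fell in WT and 3 in KO, and of the 9 other ETS factors 4 and 5, with Elk3 at -0.64 and -0.90. For the difference in irradiation response, called for 1.88% of all genes, no other ETS factor, interferon regulatory factor or B and plasmacytoid dendritic cell target was called, while 9 of 21 myeloid targets were higher and 1 lower, with Lcn2 at 2.07 and Ltf at 1.87, and the T-lineage factor gene Runx3 was lower (-0.84). In ENU and in Notch tumours no gene of any of these lists was called between genotypes, where 0% and 0.0154% of all genes were called.

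Markers of other cells also differed between the groups, in both directions. Over all genes 6.79% rose and 5.49% fell in untreated KO cells, and 8.12% and 6.81% in irradiated KO cells. With irradiation 13% rose and 21.7% fell in WT, and 15.1% and 23.7% in KO. For the difference in response 1.1% were higher and 0.784% lower. The mean of 21 macrophage and dendritic cell markers was 8.88 to 8.95 in WT untreated, 9.24 to 9.25 in KO untreated, 8.06 to 8.11 in WT irradiated and 8.61 to 8.83 in KO irradiated arrays. Of the 15 tested, 9 rose in untreated KO cells, 11 rose and 1 fell in irradiated KO cells, and 11 fell with irradiation in each genotype. The 4 groups take the same order in these markers as in Csf1r. The mean of 12 B-cell markers was 8.57 to 8.74, 9.14 to 9.20, 7.80 to 7.88 and 8.18 to 8.28 in the same 4 groups; 7 of 11 tested rose in untreated KO cells, 7 rose and 1 fell in irradiated KO cells, and 9 fell with irradiation in WT and 10 in KO. The part of these markers in the differences of Sfpi1, Irf4, Irf8 and Csf1r was not tested. Among thymocytes the B-cell markers were lowest in irradiated WT, where Spib was highest. Both were higher in untreated KO than in untreated WT cells (Spib 0.44, not called). In KO both were lower in irradiated than in untreated cells (Spib -0.22, not called). The part of B-cell markers in the Spib values was not tested. The mean of 15 granulocyte markers was 8.83 to 8.96 in WT untreated and 6.87 to 6.97 in KO untreated arrays, 7.76 to 7.84 in WT irradiated and 7.03 to 7.09 in KO irradiated, and 12 of 13 tested fell in untreated and 9 in irradiated KO cells. For the difference in irradiation response, where Spib was lower, 11 of 13 granulocyte markers were higher and 1 lower, 4 of 15 macrophage and dendritic cell markers were higher, 3 of 4 erythroid markers were lower, 2 of 11 natural killer and innate-like T cell markers were lower, and no B-cell, T-cell or thymic stroma marker was called; their part was not tested. Of 11 natural killer and innate-like T cell markers 7 rose in untreated and 9 in irradiated KO cells, of 4 erythroid markers 3 and 2, and of 10 thymic stroma markers 2 and 1. Defining T-cell markers were bright in all thymocyte groups, and none of 14 was called between untreated genotypes, while 4 fell in irradiated KO cells.

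**Figure D5:**
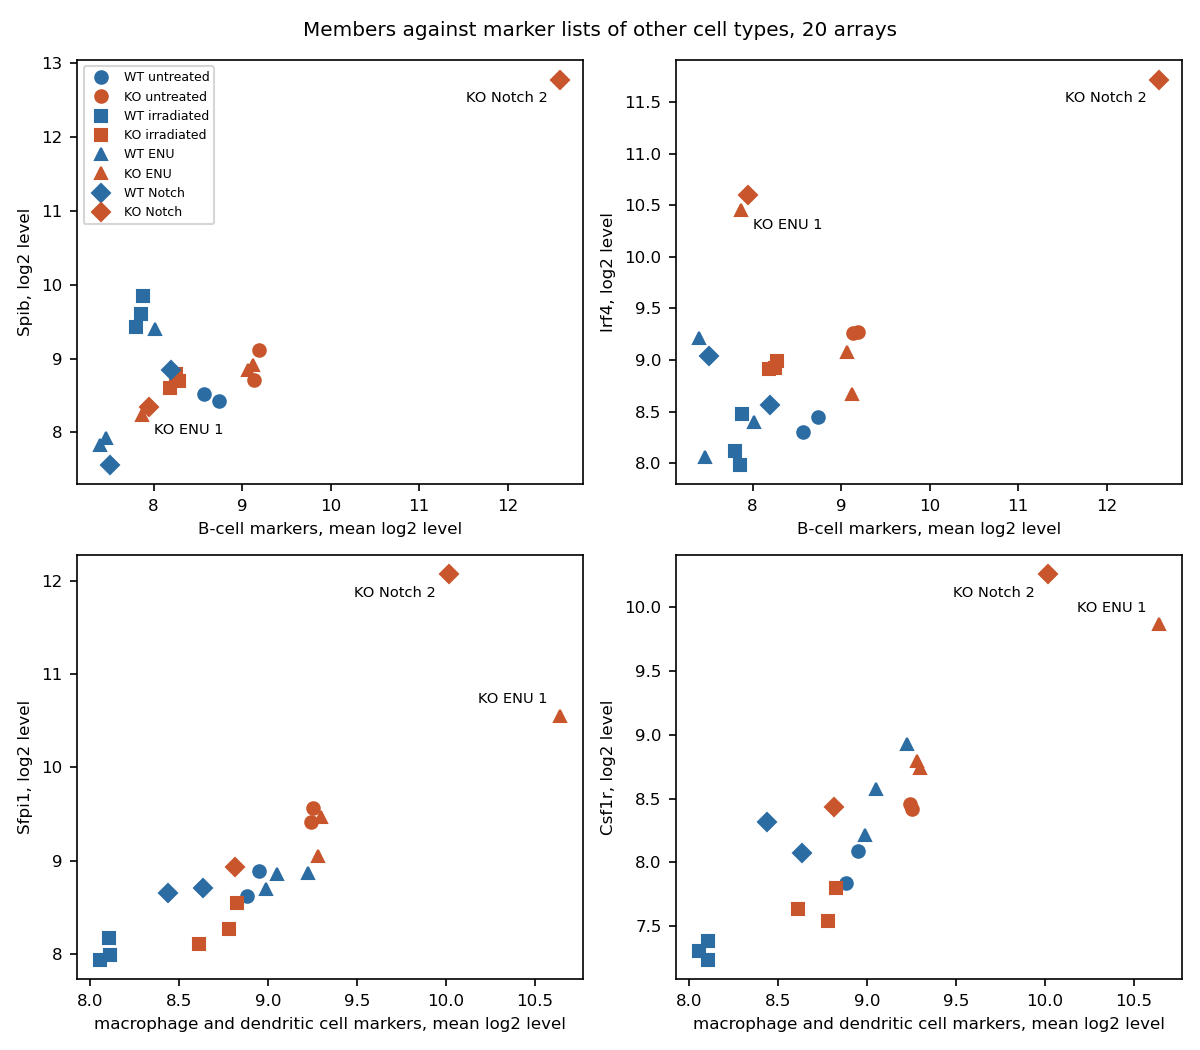
Log2 level of Spib and Irf4 against the mean of B-cell markers, and of Sfpi1 and Csf1r against the mean of macrophage and dendritic cell markers, on the 20 arrays; colour gives the genotype and shape the condition. Irradiated WT arrays lie high for Spib at low B-cell markers (7.80 to 7.88), and the libraries labelled KO Notch 2 and KO ENU 1 lie at the upper right for Sfpi1 and Csf1r.

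In the fit of the 10 tumour arrays none of the 9 genes was called in any comparison. The gene value of Csf1 was bright on 1 tumour array and went untested, and its 2 probe sets bright enough to test were not called, and Cebpa passed the limit through KO ENU array 1 and the library labelled KO Notch 2 alone. In ENU tumours 0 of 8 were called, as were 0% of 13025 genes; 1782 of these genes had an unadjusted limma p under 0.05, and none of the 8 did. The median of the 8 was 0.42, against -0.07 over all genes, a description only since it includes Cebpa. In simulated data of this design 43.4% of genes shifted by 1 on the log2 scale were recovered, so a difference of that size can be missed here.

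Sfpi1 read 8.70, 8.86 and 8.85 in WT ENU tumours and 10.55, 9.05 and 9.47 in those labelled KO. All 3 KO arrays lay above the WT arrays, as did those of 1 more tested gene, Cebpa, where 10.4% of all genes did so. Cebpa was bright enough to test through KO arrays alone, so this count is a description only. The Sfpi1 difference was 0.88 ± 0.70 (limma adjusted p = 0.503; 95% interval -0.72 to 2.49), and 0.45 without KO ENU array 1. Irf4 read 9.21, 8.06 and 8.40 in WT and 10.45, 9.07 and 8.68 in KO ENU tumours, a difference of 0.84 ± 0.51 (limma adjusted p = 0.414) that was 0.32 without KO ENU array 1. Csf1r read 8.22, 8.93 and 8.58 in WT and 9.87, 8.80 and 8.74 in KO, a difference of 0.56 ± 0.48 (limma adjusted p = 0.527) that was 0.19 without that array. Irf8 read 9.94, 9.91 and 9.98 in WT and 9.74, 9.65 and 9.82 in KO, lower on all 3 KO arrays, as for 19% of all genes, by -0.21 ± 0.60 (limma adjusted p = 0.857). Spib read 7.83, 7.93 and 9.40 against 8.23, 8.85 and 8.91, which overlap. The differences of Cebpa (0.57), Cebpb (0.21) and Cebpe (0.29) were not called. KO ENU array 1 was thus the highest of the 6 for Sfpi1, Irf4 and Csf1r, and also for Cebpa (8.19, others 6.83 to 7.36), Csf1 (7.94, dim) and Cebpb (8.51). The same array had macrophage and dendritic cell markers at a mean of 10.64, with C1qa at 11.2, Mrc1 at 11.7 and Cd14 at 9.9, against 8.99 to 9.30 on the other 5 ENU arrays, which for Mrc1 lay between 7.45 and 8.63. The part of these markers in the ENU values was not tested.

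In Notch tumours the differences of Sfpi1, Spib, Irf8 and Csf1r rested on 1 library. Sfpi1 read 8.65 and 8.71 in WT, and 8.94 and 12.07 in KO; Spib 7.56 and 8.85, and 8.35 and 12.78; Irf8 8.85 and 9.19, and 9.19 and 12.17; and Csf1r 8.32 and 8.07, and 8.44 and 10.26. In each pair of KO values the second is the library labelled KO Notch 2, and the first lies near or within the WT range. Irf4 was the exception: WT arrays read 9.04 and 8.57, and KO arrays 10.60 and 11.72, so KO Notch array 1, whose B-cell markers had a mean of 7.95, was also above both WT arrays. The Irf4 difference of 2.35 ± 0.62 was not called (limma adjusted p = 0.61; unadjusted p = 0.00491), where 0.0154% of all genes were called, all lower. It was the 1 of the 8 tested members with an unadjusted limma p under 0.05, as had 780 of 13025 genes. The median of the 8 was 1.41, against -0.05 over all genes, and KO lay above WT without overlap for 5 of the 8, where 11.7% of all genes did so. Cebpa is 1 of these 5 and was bright enough to test through KO ENU array 1 and the library labelled KO Notch 2 alone. Its higher KO mean is tied to how it was admitted, which makes the count and median a description only. Cebpa (0.61), Cebpb (0.06) and Cebpe (-0.21) were not called. Without the library labelled KO Notch 2 the Irf4 difference was 1.79 ± 0.72 (limma adjusted p = 0.996), on 1 KO array assumed to vary like the other groups, and the differences of Sfpi1 (0.26), Spib (0.15), Irf8 (0.17) and Csf1r (0.24) were then small. With KO Notch 2 as the only KO array they were 3.40 for Sfpi1, 4.58 for Spib, 2.91 for Irf4, 3.14 for Irf8 and 2.07 for Csf1r, all called. With all 20 arrays in 1 fit, Irf4 was called in this comparison (limma adjusted p = 0.0267). All 9 Irf4 probe sets tested were positive in both tumour types, at 0.65 to 1.17 in ENU and 2.12 to 3.12 in Notch tumours, and none was called. The B-cell marker mean on the library labelled KO Notch 2 (12.59) stood beside levels of Spib, Irf4, Irf8, Sfpi1 and Csf1 that were the highest of the 20 arrays. The mean of macrophage and dendritic cell markers ran from 8.81 to 10.02 on the KO Notch arrays, against 8.44 to 8.63 in WT Notch tumours. The part of either marker list in these levels was not tested beyond leaving that library out.

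The KO effect was not called as different between tumour types for any member, where 0% of genes were. WT Notch against WT ENU tumours gave no called member, where 0.023% of genes were called, 0.0154% higher and 0.00768% lower. WT tumours against WT untreated thymocytes gave no called member either, where 20.1% of 13520 genes were called for ENU tumours, 9.87% higher and 10.2% lower, and 7.68% for Notch tumours, 2.14% higher and 5.54% lower. In these 4 comparisons no member had an unadjusted limma p under 0.05, as had 934, 967, 4494 and 3178 genes. The Irf8 difference of WT Notch from WT ENU tumours was -0.92 ± 0.67 and was not called (limma adjusted p = 0.787). Against thymocytes its 3 WT ENU arrays (9.91 to 9.98) lay above both WT untreated arrays (8.97 and 9.08). Of all genes, 27.9% lay higher without overlap. The difference was 0.92 ± 0.51 (limma adjusted p = 0.228). Its spread came mainly from the library labelled KO Notch 2: without that library in the fit, a setting chosen after seeing the data, the difference was 0.92 ± 0.11 (limma adjusted p = 4.13e-05), and with the 2 groups alone it was also called (limma adjusted p = 0.00529). WT Notch tumours (8.85 and 9.19) lay at the thymocyte level of Irf8.

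Over the 8 groups each gene had its own order of mean levels, given without a test. Sfpi1 was highest in KO Notch (mean 10.50 ± 2.22 SD, n = 2) and KO ENU tumours (9.69 ± 0.78, n = 3), followed by KO untreated thymocytes (9.49), then WT ENU (8.80), WT untreated (8.76) and WT Notch (8.68), whose arrays overlap, and was lowest in KO irradiated (8.31) and WT irradiated (8.03) thymocytes, which also overlap. Spib was highest in KO Notch tumours (10.57 ± 3.13, n = 2) and then in WT irradiated thymocytes (9.63 ± 0.21, n = 3); the other 6 groups lay between 8.20 and 8.91 and overlapped with their neighbours in that order. Irf4 had its 3 highest means in groups labelled KO, KO Notch (11.16 ± 0.79), KO ENU (9.40 ± 0.93) and KO untreated (9.27 ± 0.01), and its lowest in WT irradiated (8.19 ± 0.25). The KO ENU arrays do not show the labelled loss of Gfi1. Irf8 was highest in KO Notch (10.68 ± 2.10), WT ENU (9.94 ± 0.04) and KO ENU tumours (9.73 ± 0.09) and lowest in irradiated thymocytes of both genotypes (8.89 and 8.86), which overlap. Csf1r ran from 9.35 ± 1.29 in KO Notch and 9.14 ± 0.64 in KO ENU tumours to 7.66 in KO irradiated and 7.31 in WT irradiated thymocytes.

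The genes most like each member were read from Pearson correlations of log2 levels, as a description; the arrays share groups and a few stand far apart. Over 20 arrays Csf1r ran with Tgfbi (r = 0.97), Mpeg1 (0.97) and Sirpa (0.96), genes expressed in macrophages, and the same 3 led over the 19 arrays without KO Notch 2. Sfpi1 ran with Sdc3 and Ctsh (both 0.97) over 20 arrays, and with Mpeg1 (0.96) and Tyrobp (0.96) over 19. Irf8 ran with Pkig (0.97 over 20 and 0.92 over 19). Spib ran with Pxk (0.89) and Mef2c (0.88) over 20 arrays and with Hist1h2bc (0.77) over 19. Irf4 ran with Tnfsf8 and Scpep1 (both 0.89) over 20 and with Numb (0.87) over 19. On the 10 thymocyte arrays the leading genes were Lysmd2 (0.99) and Fcer2a (0.99) for Csf1r, Fhl2 (0.97) for Spib, Camk2d (0.99) for Irf4 and Cep164 (0.98) for Irf8. Among the members, Sfpi1 and Csf1r ran together on thymocyte arrays (r = 0.98, n = 10) and over 19 arrays (0.91), while Sfpi1 and Spib had an r of -0.39 on thymocyte arrays, 0.53 over 20 and -0.31 over 19, so their positive value rests on the library labelled KO Notch 2.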

How the data were processed

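The 20 mouse samples were each hybridised to 1 expression array. Per the labels' protocols, RNA was extracted with a Qiagen kit, amplified and labelled by a NuGEN kit and in vitro transcription. The authors deposited processed values of 182058 probe sets, read here as log2 from their range; their log base, background correction and normalization were not given in the sources used. Names came from GEO's annotation of the platform: 167016 probe sets name 1 gene, 3388 several and 11654 none. The mean over 20 arrays was subtracted from every single-gene probe set; a gene's value on an array is the median of these, raised by the average of the subtracted means. limma 3.58.1 (lmFit, eBayes) in R 4.3.3 fitted thymocytes (10 arrays) and tumours (10) separately and tumours against thymocytes on all 20, with Benjamini-Hochberg adjustment over all genes and, apart, over all probe sets. Values written a ± b are a log2 difference and its standard error, unless given as mean and SD. The test was tested on simulated data. The number of arrays limits the precision. The members and lists were chosen with earlier results of these data known. All 9 members are named, up to 4 genes a list by smallest p, marker lists by counts and levels, and the 3 most like genes by correlation. Figures used Python 3.11.15 and matplotlib 3.10.9.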

Additional observations from a re-analysis of the deposited data

Results flagged for a closer look

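The irradiation response of Spib differed between genotypes by a test of the difference itself: KO minus WT was -1.37 ± 0.19 (SE, limma adjusted p = 0.000737), with a rise in WT (1.15; higher on 3 of 3 irradiated arrays than on both untreated arrays) and no call in KO (-0.22). The untreated and irradiated KO arrays lacked signal at partly different Gfi1 probe sets, and any difference in allele between them cannot be told apart from the response to irradiation.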

How the results depend on the processing

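Quantile normalization, array median centring and trended, robust eBayes moved no count of members or of member probe sets by over 1.5 times. Without the filter no member probe sets (0) were called for the difference in irradiation response; with the mean of probe sets 2 members were; with bright probe sets alone 3 members were called for irradiated against untreated KO. With all 20 arrays in one fit 0 members and 0 member probe sets were called in each of the 5 thymocyte comparisons, and 1 member and 4 member probe sets in KO against WT Notch tumours. With the 2 groups alone, 1 member and 10 member probe sets were called in WT ENU tumours against thymocytes. With 19 arrays in one fit, added after seeing the data, 0 members were called in 4 thymocyte comparisons and 2 in irradiated against untreated KO; 3 member probe sets were called for irradiated against untreated WT and 0 in the other 3 moved thymocyte comparisons; 1 member and 11 member probe sets were called in WT ENU tumours against thymocytes. Fits with the tumours have a larger spread; other causes were not tested.

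Labels share replicate numbers, but same-numbered arrays did not deviate together (pair correlations from -0.46 to 0.20), so the numbers were not taken as pairs. The replicate block gave 3 members in irradiated against untreated KO and 0 member probe sets for the difference in response; other counts stayed within 1.5 times.

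Leaving out 1 array at a time gave 2 to 4 members and 2 to 5 member probe sets in untreated KO against WT, 2 to 4 and 8 to 11 in irradiated, 3 to 4 and 6 to 10 for irradiation in WT, 3 to 4 and 5 to 18 in KO, 1 to 2 and 0 to 1 for the difference in response, 0 to 5 and 0 to 29 in Notch tumours, 0 to 1 and 0 to 11 for the difference in KO effect, and 0 members and 0 to 1 member probe sets in WT tumours against thymocytes. In ENU tumours and in WT Notch against ENU tumours both stayed at 0. Over all members and settings 51 single differences lost their call, 18 gained one and none reversed while called.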
